A study of Mus musculus with 30 samples.

Results

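The 9 genes described here encode structural proteins of the central myelin sheath and an enzyme of its lipids, namely Mbp, Mog, Mag, Mobp, Cnp, Mal, Cldn11 and Ugt8a, together with the tetraspanin Tspan2. They are 9 of the 21412 genes in the deposited normalized counts, and each was matched by its Ensembl identifier to a symbol of the annotation. Tspan2 was chosen by its lower level in hippocampus of mice on the high dose of methylmercury (MeHg) than in control mice, and the other 8 were listed as myelin genes with earlier results of the same libraries known. The levels in the Ctr, LD and HD groups are therefore given as a description, with no test. RNA-seq was made from hippocampus of male BALB/c mice, 1 library per mouse and 5 mice in each of 6 groups, after sub-chronic exposure through the feed from a young age. Ctr mice received feed with 0 mg added MeHg per kg, and the feed of LD and HD mice held 0.28 and 5 mg MeHg per kg. Se_Ctr, Se_LD and Se_HD mice received selenium, named in the series title as selenium-methionine, with no mercury, a low dose or a high dose. The selenium level and the mercury level of these 3 diets are not given in the sources used here, so each of them is named by its label. All diets of the Ctr, LD and HD mice shared the same purified base. MeHg was given together with cysteine, and the control feed received cysteine without it.

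Myelin is the membrane that oligodendrocytes wrap around axons, compacted on its cytoplasmic side by basic proteins and held together on its outer side by proteolipids and adhesion proteins. In the hippocampus most of it lies in the fibre tracts, such as the fimbria and alveus, so that a whole-tissue sample holds a mixture of myelinating oligodendrocytes, neurons, astrocytes and other cells. The genes of mature oligodendrocytes are largely switched on together late in the lineage, under transcription factors such as SOX10 and MYRF. In whole tissue, fewer oligodendrocytes and less myelin RNA in each of them cannot be told apart.

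The genes lie at separate loci of the NCBIM37 build. Of the proteins that compact the sheath, Mbp (ENSMUSG00000041607), which encodes myelin basic protein, lies at chr18:82644538-82755029 on the plus strand, and Mobp (ENSMUSG00000032517), which encodes a further basic protein of the cytoplasmic side, at chr9:120058860-120090602 on the plus strand. Cnp (ENSMUSG00000006782), for the cyclic nucleotide phosphodiesterase of non-compact myelin, lies at chr11:100436218-100453043 on the plus strand, and its exons overlap those of Dnajc7 on the opposite strand. Mag (ENSMUSG00000036634), for the adhesion protein of the wrap next to the axon, lies at chr7:31684202-31699851 on the minus strand. Mog (ENSMUSG00000076439), for a glycoprotein of the outermost surface of the sheath, lies at chr17:37147691-37160343 on the minus strand. Mal (ENSMUSG00000027375), for a proteolipid of lipid-raft membranes and their sorting, lies at chr2:127458962-127482431 on the minus strand. Cldn11 (ENSMUSG00000037625), for the claudin of the tight junctions within myelin, lies at chr3:31048868-31063246 on the plus strand. Ugt8a (ENSMUSG00000032854), for the transferase that makes galactosylceramide, lies at chr3:125568277-125641468 on the minus strand. Tspan2 (ENSMUSG00000027858), for a tetraspanin of the oligodendrocyte membrane, lies at chr3:102538452-102576215 on the plus strand, and its exons overlap those of 2410057H14Rik on the opposite strand. The library kit marks strand, but the strand setting of the read counting is not given in the sources used here.

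Each of the 30 libraries held from 5768208 to 11510521 reads assigned to genes, with the lowest median in Ctr mice (7119788) and the highest in HD mice (10159514). Values are the authors' normalized counts, that is, reads divided by one size factor for each library, and mean ± SD refers to 5 mice. Of the markers of Schwann cells, which make peripheral myelin, Pmp2 was at most 3.33 normalized counts in all 30 libraries. The summed level of the 6 Schwann cell markers, of which Drp2, Egr2 and Prx were also present in this brain tissue, ranged from 986 to 1139 in Ctr and from 746 to 1239 in HD mice.

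RefSeq windows of the 250 bases before the most upstream start were found for 8 of the 9 genes, Mbp excepted, in the GRCm38.p6 build. They were searched on both strands for CTGGCAC and CTGGTAC, words of the kind that MYRF binds, for ACAAAG, a SOX-type word, for CAGCTG, an E-box, and for TATAAA. No match overlapped another. CTGGCAC occurred in the windows of Mag and Cnp, against 4.16% of the 27025 genes in the table. CTGGTAC occurred in that of Mog, against 1.80% of genes. ACAAAG occurred in the windows of Mag, Cnp and Mobp, against 16.5% of genes, and in Mobp it was found 6 times. CAGCTG and TATAAA were in none of the 8 windows, against 12.7% and 13.0% of genes. The windows of Mal, Cldn11, Ugt8a and Tspan2 held none of these words. Mag and Mog are shown because they hold the MYRF-type words, Mobp because it repeats the SOX-type word, and Mal because it had the lowest level in HD relative to Ctr mice and held no match. Each is written 5′ to 3′ on the strand of its gene, with matches in capitals, and ends at the base before the start. The window of Mag is chr7:30914923-30915172 and that of Mog chr17:37023399-37023648, both on the minus strand. The window of Mobp is chr9:120149492-120149741 on the plus strand, and that of Mal is chr2:127656696-127656945 on the minus strand.
Mag: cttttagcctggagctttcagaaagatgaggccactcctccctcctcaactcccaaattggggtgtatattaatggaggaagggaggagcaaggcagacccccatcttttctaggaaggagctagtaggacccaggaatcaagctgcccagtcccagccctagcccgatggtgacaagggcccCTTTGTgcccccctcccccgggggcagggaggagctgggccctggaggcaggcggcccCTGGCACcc
Mog: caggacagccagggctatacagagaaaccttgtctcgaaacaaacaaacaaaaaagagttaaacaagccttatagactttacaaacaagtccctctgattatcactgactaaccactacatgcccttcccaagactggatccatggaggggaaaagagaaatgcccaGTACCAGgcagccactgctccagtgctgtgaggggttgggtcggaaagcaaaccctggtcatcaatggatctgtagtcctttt
Mobp: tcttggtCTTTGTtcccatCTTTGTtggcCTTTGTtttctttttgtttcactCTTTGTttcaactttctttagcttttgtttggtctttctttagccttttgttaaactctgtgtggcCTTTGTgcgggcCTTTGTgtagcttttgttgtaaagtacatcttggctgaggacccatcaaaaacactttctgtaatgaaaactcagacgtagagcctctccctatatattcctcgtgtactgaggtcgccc
Mal: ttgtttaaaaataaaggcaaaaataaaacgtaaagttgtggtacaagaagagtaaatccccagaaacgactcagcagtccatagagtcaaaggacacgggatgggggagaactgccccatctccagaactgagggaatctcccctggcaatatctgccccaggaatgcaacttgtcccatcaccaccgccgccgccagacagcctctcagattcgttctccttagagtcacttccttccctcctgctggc
In Mag the first base of CTGGCAC lies 9 bases before the start and that of ACAAAG 67 bases before it, the latter on the opposite strand and so printed as CTTTGT. In Mog the word lies 83 bases before the start, on the opposite strand, and is printed as GTACCAG. In Mobp the 6 matches begin between 243 and 120 bases before the start, all as CTTTGT. The windows of Tspan2 and Cnp are not shown because 241 and 35 of their bases lie inside the gene as the NCBIM37 annotation draws it.

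All 9 genes were well above the floor of detection in every library. Per kilobase of exon, the mean over the 30 libraries was 1467 normalized counts for Mbp and 1098 for Mobp, the basic proteins of compact myelin. It was 761 for Cldn11, 640 for Cnp, 480 for Mag and 443 for Mal. Mog had 304, Tspan2 218 and Ugt8a 217 normalized counts per kilobase. Mbp, the highest, was thus 1 of the most abundant transcripts of the tissue, with 0.205% of all genes having a higher mean normalized count. The highest library exceeded the lowest by 2.13-fold (Ugt8a and Cldn11) to 2.63-fold (Mal) over the 30 mice.

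Tspan2 had normalized counts of 1022, 929, 1032, 994 and 1049 in the 5 Ctr mice. In LD mice they were 1097, 916, 1008, 867 and 1146, and in HD mice 687, 825, 872, 978 and 759. The HD mice thus lay lowest, with 4 of 5 below all Ctr mice, while LD mice spread to both sides of the narrow Ctr range. The means were 1005 ± 46.9 (SD, n = 5) in Ctr, 1007 ± 118 (SD, n = 5) in LD and 824 ± 111 (SD, n = 5) in HD mice. The log2 difference of HD from Ctr mice was -0.29 (standard error 0.10, 95% interval -0.51 to -0.08, limma on log2 of the normalized count plus 1), or 18.0% lower by the means. That of LD from Ctr mice was 0.00 (95% interval -0.22 to 0.21). Leaving out each of the 15 mice in turn kept the HD difference between -0.36 and -0.23. The library numbers form 5 sets of 6 in a row, each with 1 mouse of every group, and Tspan2 was lower in the HD than in the Ctr mouse of 5 of 5 sets, as were Mal, Mbp, Mog and Cnp in 4 of 5 and the other 4 genes in 3 of 5. The share of all genes with such counts is not given here, and Tspan2 was chosen on this same difference.

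Mal was the gene with the lowest level in HD mice relative to Ctr mice. Its normalized counts were 1550, 909, 1437, 1478 and 1371 in Ctr mice and 1351, 1388, 1381, 1241 and 1292 in LD mice. In HD mice they were 967, 649, 1157, 1140 and 823. One Ctr mouse, replicate 2, the library with the fewest reads of all 30 (5768208), had 909 and so lay inside the HD range, while the other 4 Ctr mice were above every HD mouse. The means were 1349 ± 255 (SD, n = 5) in Ctr, 1331 ± 62.9 (SD, n = 5) in LD and 947 ± 215 (SD, n = 5) in HD mice. The log2 difference of HD from Ctr mice was -0.52 (standard error 0.15, 95% interval -0.83 to -0.21), and it was -0.65 without Ctr replicate 2 and -0.39 without HD replicate 2. All 5 HD mice lay below all 5 LD mice for Mal, as the only gene of the 9. Such a separation, HD under LD, was seen for 0.474% of the 20031 genes tested. No gene of the 9 had all 5 HD mice below all 5 Ctr mice, which was seen for 0.734% of the genes tested.

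Mog, of the outer surface of the sheath, had 578, 427, 579, 461 and 602 normalized counts in Ctr mice. In LD mice it had 640, 451, 541, 601 and 478, and in HD mice 432, 345, 396, 559 and 459. The groups overlapped, with 2 of 5 HD mice below all Ctr mice. The log2 difference of HD from Ctr mice was -0.28 (standard error 0.13, 95% interval -0.56 to 0.00), and -0.20 without HD replicate 2.

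The transcripts of the basic proteins that compact the sheath had intervals that included 0. Mbp had 12427 ± 1542 (SD, n = 5) normalized counts in Ctr and 11402 ± 2050 (SD, n = 5) in HD mice, a log2 difference of -0.14 (95% interval -0.43 to 0.16). The HD mice had 11687, 8060, 11867, 13694 and 11700, so that replicate 2 alone was below all Ctr mice, and without it the difference was -0.02. Mobp had 7131 ± 1246 (SD, n = 5) in Ctr and 6688 ± 1363 (SD, n = 5) in HD mice, a log2 difference of -0.10 (95% interval -0.44 to 0.24) that was 0.04 without HD replicate 2. For both genes the sign or size of the difference thus rested on this 1 library.

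Among the other genes, Cnp had a log2 difference of HD from Ctr mice of -0.15 (95% interval -0.44 to 0.14), and -0.07 without HD replicate 2, at means of 2275 ± 281 in Ctr and 2062 ± 359 in HD mice (SD, n = 5). Ugt8a, of galactosylceramide synthesis, had -0.07 (95% interval -0.35 to 0.21). Mag had 0.02 (95% interval -0.31 to 0.34) and Cldn11 -0.01 (95% interval -0.27 to 0.25). These intervals all include 0. The median log2 difference over the 9 genes was -0.14 in HD mice, with 8 below and 1 above 0, beside a median of 0.01 over all genes tested. The count of signs was not stable, since leaving out 1 mouse turned Mag (-0.11 to 0.09), Cldn11 (-0.13 to 0.07) and Mobp (-0.20 to 0.04). The median ranged from -0.21 to -0.07 when 1 mouse was left out, the latter without HD replicate 2, and the 9 signs are not independent since the genes vary together from mouse to mouse. In LD mice the median was 0.03, from -0.03 to 0.09 when 1 mouse was left out, and the values lay between 0.00 for Tspan2 and 0.20 for Ugt8a, with all 9 intervals including 0. Both comparisons share the same 5 Ctr mice.

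**Figure D1:**
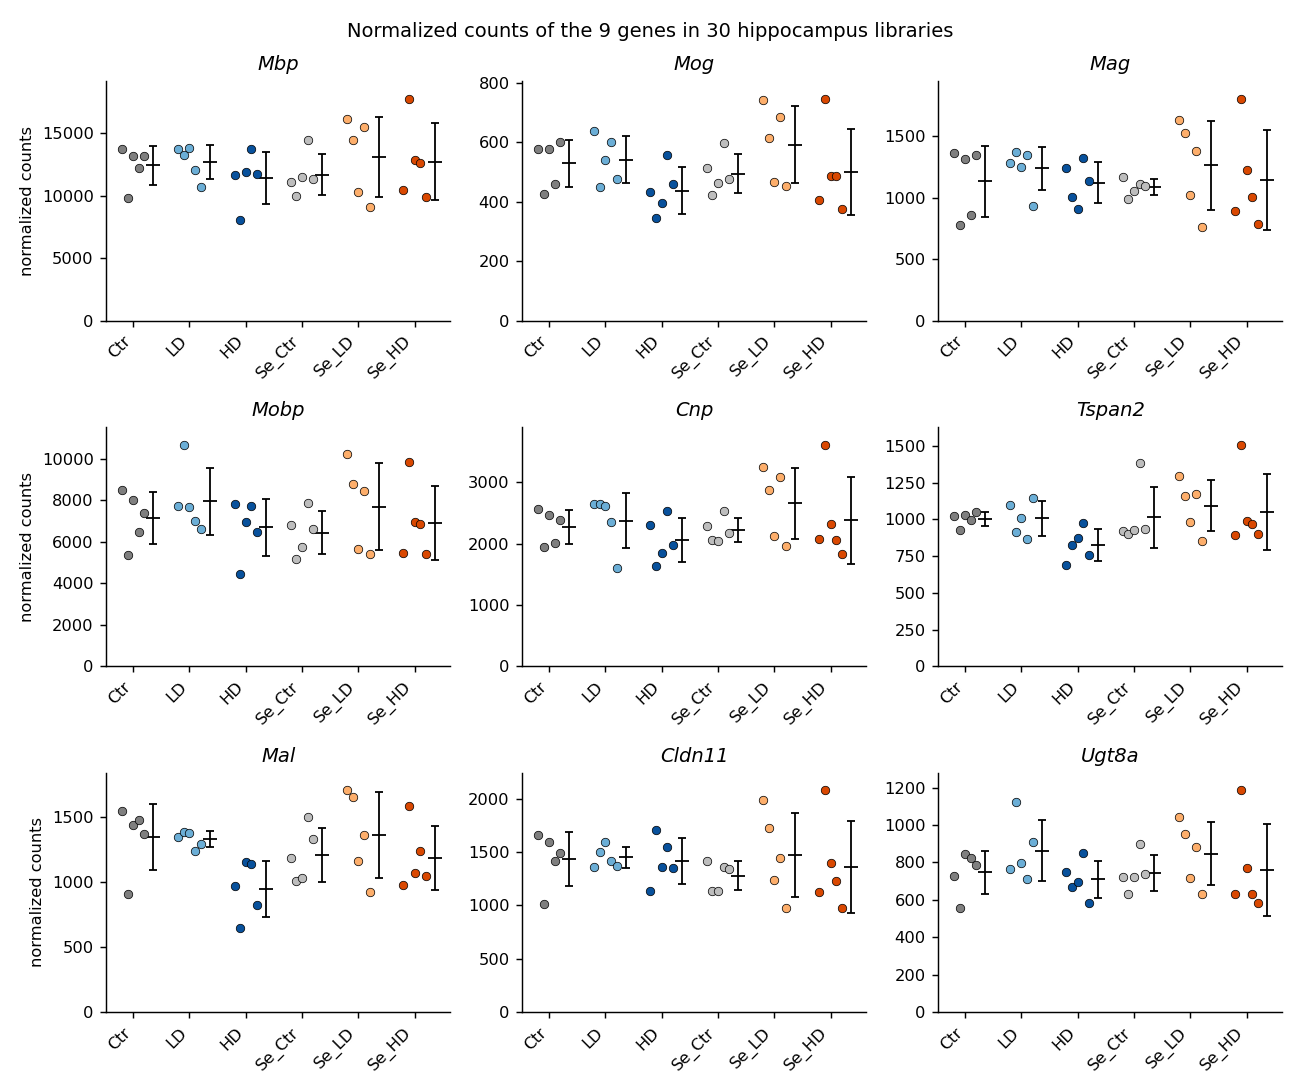
Normalized counts (vertical axis, from 0) of each gene in the 5 mice of each group (points, in replicate order) with the mean and SD beside them. Tspan2 and Mal lie lowest in HD mice, at means of 824 and 947 normalized counts, while the selenium groups at the low and high dose spread widely in every gene.

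Relative to the other 8 genes in the same library, Mal stood apart in HD mice. The log2 level of Mal minus the mean of the other 8, set to 0 at the Ctr mean, was -0.39 ± 0.25 (SD, n = 5) in HD and -0.08 ± 0.08 (SD, n = 5) in LD mice. It lay between -0.70 and -0.02 in the 5 HD mice and between -0.20 and 0.24 in the 5 Ctr mice. The same quantity was -0.14 ± 0.22 (SD, n = 5) for Tspan2 in HD mice, within the range of -0.16 to 0.28 seen in Ctr mice at its mean. It was 0.21 ± 0.19 (SD, n = 5) for Mag and 0.18 ± 0.35 (SD, n = 5) for Cldn11. Single mice carried some of these means, since Cldn11 had 0.76 in HD replicate 2 and -0.20 to 0.17 in the other 4, and Tspan2 had -0.45 in HD replicate 1 and -0.20 to 0.14 in the other 4. Of the 9 means in HD mice, that of Mal was farthest from 0.

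**Figure D2:**
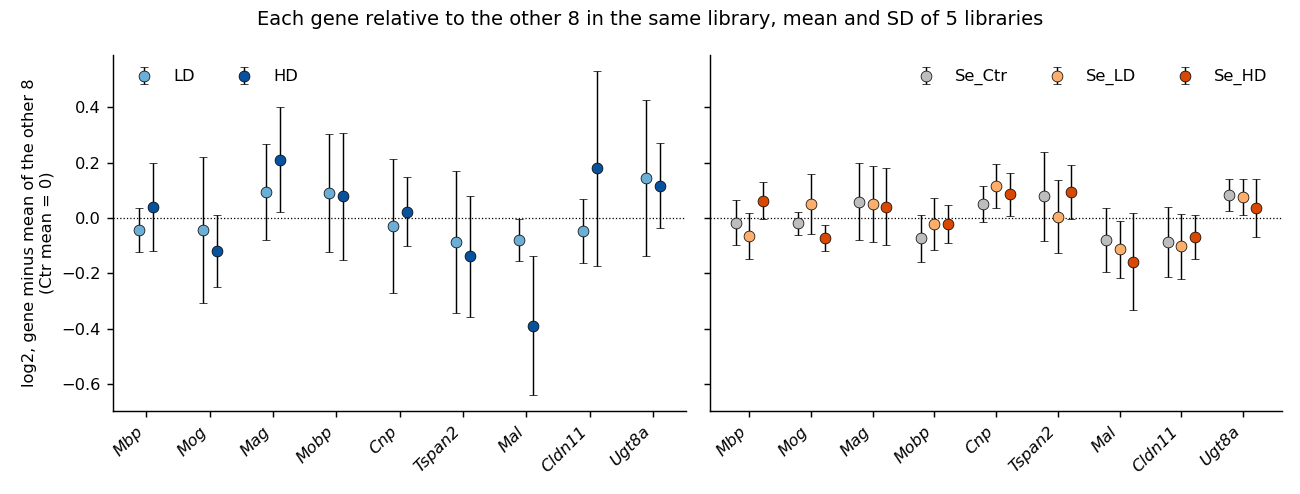
For each gene, the log2 level minus the mean log2 level of the other 8 genes in the same library, relative to the Ctr mean (vertical axis), as mean and SD of 5 mice, for LD and HD mice at left and the selenium groups at right. Mal in HD mice, at -0.39, is farthest from 0, and all means of the selenium groups lie within 0.16 of 0.

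HD replicate 2 differed from the other HD mice in several of these genes. It had the lowest HD values of Mbp, Mog, Mobp, Cnp and Mal, yet the highest of Cldn11, at 1702 against 1131 to 1548 normalized counts in the other 4. Markers of astrocytes and microglia were high and those of neurons low in the same mouse. The summed level of the 8 neuron markers was 69126, 47368, 63817, 61070 and 51686 in the 5 HD mice, against 57223 to 68110 in Ctr mice. HD replicates 2 and 5 were the lowest 2 of all 30 libraries. Gfap, of the astrocyte cytoskeleton, had 5143, 32820, 4080, 7281 and 12446 normalized counts in the 5 HD mice, against 1430 to 1988 in Ctr mice. The summed level of the 8 microglia markers was 3469, 6367, 2815, 3875 and 5700 in HD mice, against 2261 to 2490 in Ctr mice. The summed level of the 8 astrocyte markers was 56084 to 90397 in HD against 46579 to 57087 in Ctr mice. Of these markers, 8 of 8 for microglia and 4 of 8 for astrocytes passed the test as higher in HD mice, and 3.36% of all genes tested did so. Of the 8 neuron markers 1 passed as lower, against 1.73% of all genes tested. Their median log2 difference was -0.09, with 3 above 0 and 5 below. HD replicate 5, second in Gfap and microglia markers, also had the second-lowest Mal and Tspan2 of the group, whereas Tspan2 was lowest in replicate 1, which was the second-lowest of the 5 in Gfap. The part of glial and neuron markers in the level of the 9 genes was not tested.

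In the selenium groups, which the choice of Tspan2 did not use, none of the 9 genes passed the test. This question, whether the myelin genes differ with mercury dose when selenium is given, was tested with limma over the 15 libraries, and a gene was called where its unadjusted p was under 0.05 both for any difference among the 3 diets (F test) and for the contrast against Se_Ctr. In Se_LD mice 0 of 9 genes were called, 0 had an unadjusted contrast p under 0.05, and edgeR and DESeq2 also called 0. The adjusted p (limma, Benjamini-Hochberg over 19679 genes) was 0.99978 for each. Of all genes tested, 0.879% were called higher and 0.584% lower. In Se_HD mice 0 of 9 were called, 0 had an unadjusted contrast p under 0.05, and edgeR and DESeq2 called 0, beside 1.28% of all genes called higher and 0.777% lower.

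The absence of a call does not show that the levels were the same. In Se_LD mice the 9 log2 differences from Se_Ctr mice lay between 0.11 for Tspan2 and 0.24 for Mog, all above 0, with a median of 0.17 beside 0.00 over all genes tested. The 95% intervals reached from -0.22 to 0.59. Exact permutation tests of 5 mice against 5 (two-sided) gave p between 0.167 for Cnp and 0.5 for Tspan2. As in HD mice, the 9 signs are not independent. In Se_HD mice the differences lay between -0.04 for Mal and 0.10 for Mbp, with a median of 0.05, intervals from -0.38 to 0.44 and exact p from 0.571 to 0.984.

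Tspan2 had 920, 903, 927, 1386 and 932 normalized counts in Se_Ctr mice. In Se_LD mice it had 1294, 1161, 982, 1171 and 856, and in Se_HD mice 895, 1509, 992, 965 and 901. A single mouse stood above the others in Se_Ctr and in Se_HD, and the remaining mice of both groups lay between 895 and 992. The log2 difference of Se_HD from Se_Ctr mice was 0.05 (95% interval -0.25 to 0.34), 0.16 without Se_Ctr replicate 4 and -0.09 without Se_HD replicate 2. The sign thus turned with a single mouse.

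Mal had 1188, 1009, 1030, 1498 and 1335 normalized counts in Se_Ctr mice. In Se_LD mice it had 1707, 1654, 1164, 1363 and 923, and in Se_HD mice 977, 1587, 1073, 1243 and 1044. The 3 groups overlapped throughout. The log2 difference of Se_HD from Se_Ctr mice was -0.04 (95% interval -0.36 to 0.28).

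**Figure D3:**
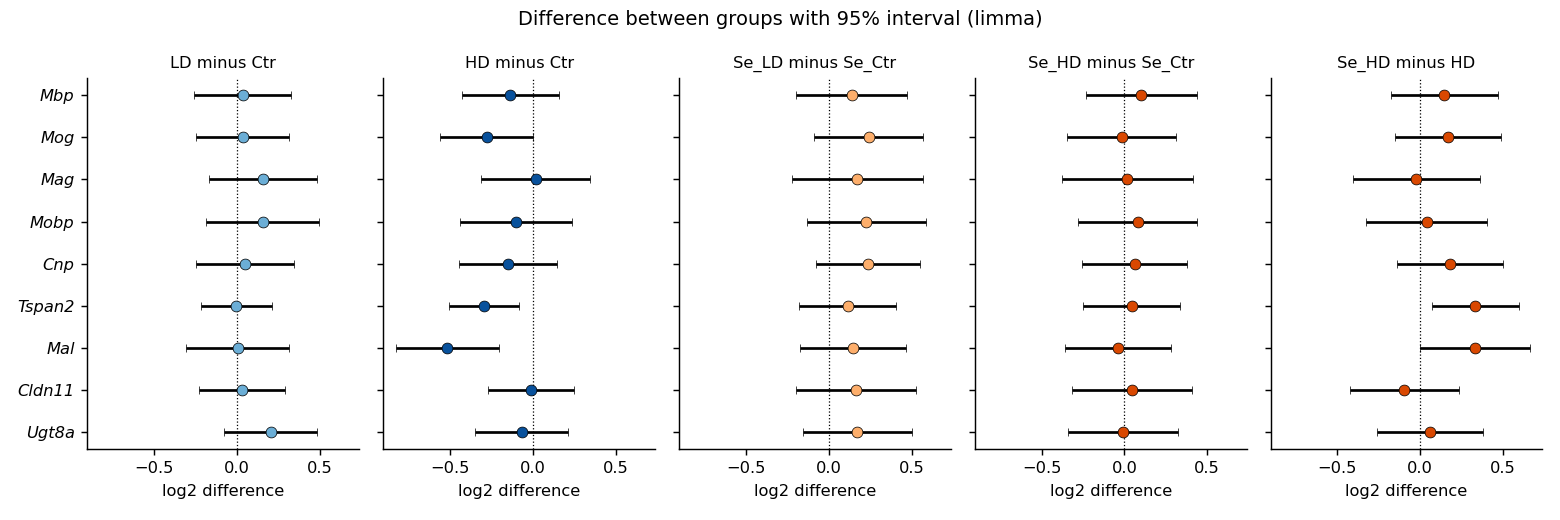
Log2 difference between groups (horizontal axis) of each gene with its 95% interval from limma, in 5 comparisons. HD minus Ctr was -0.52 for Mal and -0.29 for Tspan2, while in Se_HD minus Se_Ctr all 9 values lie between -0.04 and 0.10 with intervals that include 0.

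The same 2 genes were also those with the largest difference between the diets at the high dose. In the fit over all 30 libraries, Tspan2 was 0.33 higher on the log2 scale in Se_HD than in HD mice (95% interval 0.07 to 0.60), and Mal 0.33 higher (95% interval 0.00 to 0.66). The HD mice enter both this comparison and the choice of Tspan2, so these values are a description. Without Se_HD replicate 2, the log2 difference was 0.20 for Tspan2 (95% interval -0.05 to 0.44) and 0.22 for Mal (95% interval -0.11 to 0.56). When each of the 10 mice was left out in turn, the interval included 0 in 2 of 10 fits for Tspan2 and in 5 of 10 for Mal. The difference of the HD effect between the diets was 0.34 for Tspan2 (95% interval -0.03 to 0.71) and 0.48 for Mal (95% interval 0.01 to 0.95). Without Se_HD replicate 2 these became 0.20 (95% interval -0.13 to 0.53) and 0.37 (95% interval -0.09 to 0.83). Over the 20 mice left out in turn, the interval of this difference included 0 in 16 fits for Tspan2 and in 11 for Mal. For the other 7 genes the interval of Se_HD minus HD included 0, from -0.09 for Cldn11 to 0.18 for Cnp.

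Selenium without mercury went with no clear difference. The 9 log2 differences of Se_Ctr from Ctr mice were between -0.15 for Cldn11 and 0.00 for Ugt8a, all at or below 0, with a median of -0.09 and with all 9 intervals including 0. Between Se_LD and LD mice the median was 0.00, again with all 9 intervals including 0. Ordered by the mean, Tspan2 was highest in Se_LD (1093 ± 173, SD, n = 5), then Se_HD (1052 ± 259), Se_Ctr (1014 ± 208), LD, Ctr and HD mice. The first 5 of these means differ by less than the SD within Se_LD mice, so their order is not resolved. Se_LD mice also had the highest mean for Mbp, Mog, Mag, Cnp, Mal and Cldn11, and LD mice for Mobp and Ugt8a. HD mice had the lowest mean for Mbp, Mog, Cnp, Tspan2, Mal and Ugt8a.

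The spread between mice was large and shared by the genes. The coefficient of variation of Tspan2 was 4.66% in Ctr and 24.6% in Se_HD mice, and that of Mag was 6.02% in Se_Ctr and 35.3% in Se_HD mice. In Se_HD replicate 2, all 9 genes were the highest of their group, with 17747 normalized counts of Mbp and 1509 of Tspan2. In Se_LD mice, replicates 1, 2 and 4 were high and replicates 3 and 5 low in each of the 9 genes. The mean log2 level of the 9 genes relative to Ctr mice was 0.47, 0.31 and 0.26 in the first 3 of these and -0.15 and -0.37 in the other two. When 1 mouse was left out, the log2 difference of Se_LD from Se_Ctr mice ranged from 0.07 to 0.34 for Mag, 0.05 to 0.26 for Mbp, 0.05 to 0.30 for Cldn11 and 0.11 to 0.34 for Mobp, and each of these was highest without Se_LD replicate 5.

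**Figure D4:**
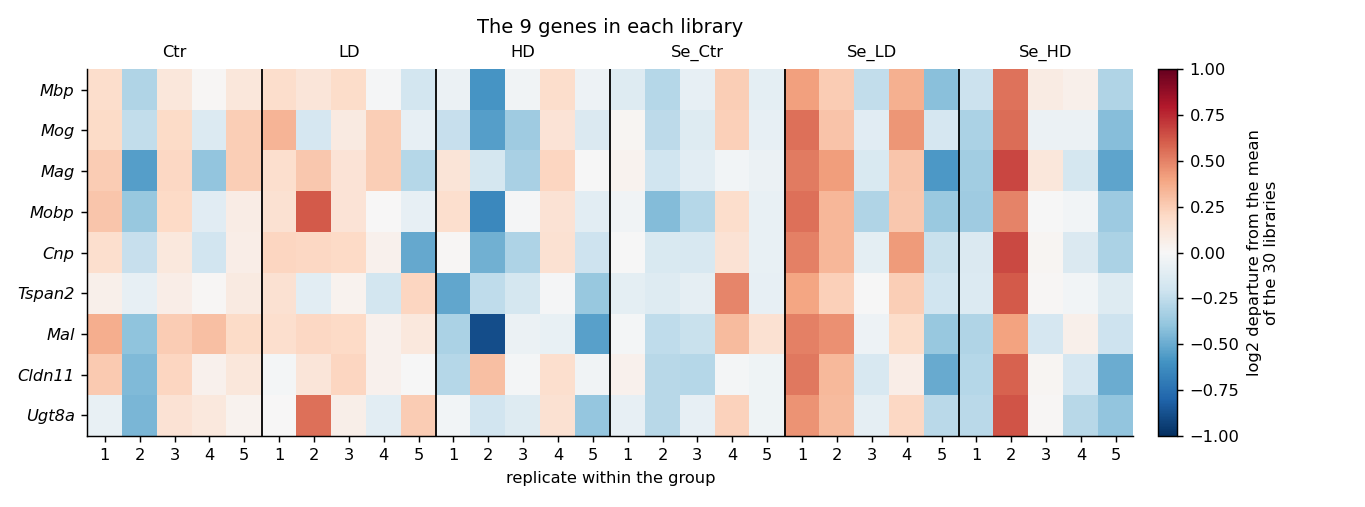
Log2 departure of each gene (rows) from its mean over the 30 libraries (colour, red above and blue below) in each mouse (columns, by group and replicate). Columns tend to hold one colour, as in Se_HD replicate 2, where all 9 genes are high. Mal and Tspan2 are the genes at or below their mean in all 5 HD mice.

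After the group means were subtracted, Pearson's r between 2 of the genes over the 30 libraries had a median of 0.73 over the 36 pairs, from 0.54 for Mag with Tspan2 to 0.92 for Mbp with Mobp. Without the 2 libraries farthest from the median, Se_HD replicate 2 and Se_LD replicate 1, the median was 0.61 and the range 0.29 to 0.89. With the mean of the other 8, Mbp had the highest r (0.94, Spearman's rho 0.93) and Tspan2 the lowest (0.73, rho 0.66), followed by Cldn11 (0.80, rho 0.72). Without the 2 farthest libraries, r was 0.92 for Mbp and 0.56 for Tspan2. The libraries share dissection, extraction and size-factor scaling, so these correlations are a description of how the samples vary.

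Among the 11088 genes whose mean reached 50 normalized counts, those whose within-group variation was most like that of Tspan2 over the 30 libraries included Serinc5 (r = 0.82), Rnf13 (r = 0.81), Prr5l (r = 0.77) and Ermn (r = 0.76). Ermn encodes an actin-associated protein of myelinating oligodendrocytes. Those most like the mean of the other 8 genes included Itgb4 (r = 0.93), Prr18 (r = 0.88), Phldb1 (r = 0.88) and Hapln2 (r = 0.85). Of the transcription factors, Myrf had an r of 0.72 with Tspan2 and 0.81 with the mean of the other 8, and Sox10 0.49 and 0.80. Other factors of the lineage were lower, with 0.26 and 0.60 for Olig1 and 0.02 and 0.37 for Olig2. Zfp536 had 0.02 and 0.20, and Tcf7l2 0.13 and 0.03. Over the 11 lineage genes with that mean level, the median r was 0.03 with Tspan2 and 0.21 with the mean of the other 8. Pdgfra, of oligodendrocyte precursors, had -0.18 and -0.40, the latter the lowest of these lineage genes. With the mean of the other 8, Cspg4 had 0.21, Gpr17 -0.17 and Vcan -0.33.

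Markers of other cells differed in how far they went with the genes. With the mean of the 8 genes other than Tspan2, the median r was 0.63 for 23 other myelin genes with that mean level, -0.12 for 8 microglia markers, -0.10 for 8 astrocyte markers and 0.19 for 8 neuron markers. It was 0.50 for the 5 choroid plexus markers with that level, against -0.02 over all 11088 genes. The choroid plexus lies against the hippocampus next to the fimbria, and its markers ranged widely between mice. Their summed level was 767 to 30808 normalized counts in Ctr, 6900 to 28964 in HD, 273 to 37096 in Se_LD and 9206 to 34011 in Se_HD mice. Se_LD replicates 3 and 5, the low mice of that group, had choroid plexus sums of 1020 and 273, the latter the lowest of all 30 libraries. Ctr replicate 1, with 767, had instead a mean log2 level of the 9 genes 0.17 above the Ctr mean. The median log2 difference of the 6 choroid plexus markers from Ctr mice was 0.53 in LD and 1.42 in HD mice. From Se_Ctr mice it was -0.97 in Se_LD and 0.73 in Se_HD mice. In HD mice 6 of the 6 lay above 0, and limma called 0 in each of the 4 comparisons. The sums did not all follow the median in Se_LD, since replicates 1, 2 and 4 had 23163, 26989 and 37096, above the 6110 to 20831 of Se_Ctr mice. The part of this in the level of the 9 genes was not tested.

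A further 61 related genes, in 4 lists, were read beside the 9 genes. In HD mice 4 of 61 were called, 3 higher and 1 lower, against 3.36% of all genes called higher and 1.73% lower, and none had an adjusted p under 0.05. Of 24 other mature oligodendrocyte and myelin genes, 1 fell, 0 rose and 23 did not pass, with a median log2 difference of -0.07. The 1 was Gpr37, a receptor of oligodendrocytes and dopamine neurons, with 484 ± 55.9 (SD, n = 5) normalized counts in Ctr and 392 ± 45.9 (SD, n = 5) in HD mice. Its log2 difference was -0.30 (standard error 0.12, limma adjusted p = 0.436), and it passed the test in 9 of the 15 fits that leave out 1 mouse, but not without the trend or in the fit of all 30 libraries. Opalin, a glycoprotein of oligodendrocytes, was the lowest of the 24 at -0.31 (95% interval -0.70 to 0.07). The highest was 0.96, and 10 of the 24 lay above 0 and 14 below.

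Of the 13 genes of myelin lipid synthesis 0 were called in HD mice by limma, with a median of 0.01, 7 above 0 and 6 below. Fa2h, which makes the hydroxylated fatty acids of galactolipids, was the lowest at -0.26 (95% interval -0.61 to 0.08), and the highest was 0.45. Of the 15 oligodendrocyte lineage genes 0 were called, with a median of 0.11, 11 above 0 and 4 below, from -0.16 to 0.56. Myrf had -0.11 (95% interval -0.42 to 0.20), Sox10 -0.06 (95% interval -0.36 to 0.24) and the precursor marker Pdgfra 0.11 (95% interval -0.10 to 0.33).

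Of the 9 tetraspanins related to Tspan2, 3 rose in HD mice, 0 fell and 6 did not pass, with a median of 0.21. Cd63, a tetraspanin of lysosomes and exosomes, had 338, 403, 361, 283 and 450 normalized counts in Ctr and 970, 1695, 489, 596 and 749 in HD mice, a log2 difference of 1.17 (standard error 0.25, limma adjusted p = 0.0695). Cd9, present in many glial cells, had 447, 407, 468, 317 and 514 in Ctr and 597, 1893, 501, 665 and 784 in HD mice, a log2 difference of 0.88 (standard error 0.24, limma adjusted p = 0.175). For Cd63 the lowest HD value exceeded the highest Ctr value, as for 0.978% of the genes tested, and for Cd9 1 HD mouse lay within the Ctr range. Both passed the test in all 15 fits that leave out 1 mouse, with log2 differences of at least 0.90 and 0.56. Cd151, of integrin complexes, had 0.45 (standard error 0.21, limma adjusted p = 0.59) and passed in 5 of these 15, with a log2 difference from 0.22 to 0.57, and not without the trend, with a pseudocount of 10, among genes with a mean of at least 10 or with the set of library numbers in the fit. HD replicate 2, with the highest Gfap, was also the highest in all 3. The part of astrocyte and microglia markers in these 3 genes was not tested. Tspan7, of neurons, was the lowest of the 9 at -0.20 (95% interval -0.42 to 0.02), and 6 of the 9 lay above 0 and 3 below.

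**Figure D5:**
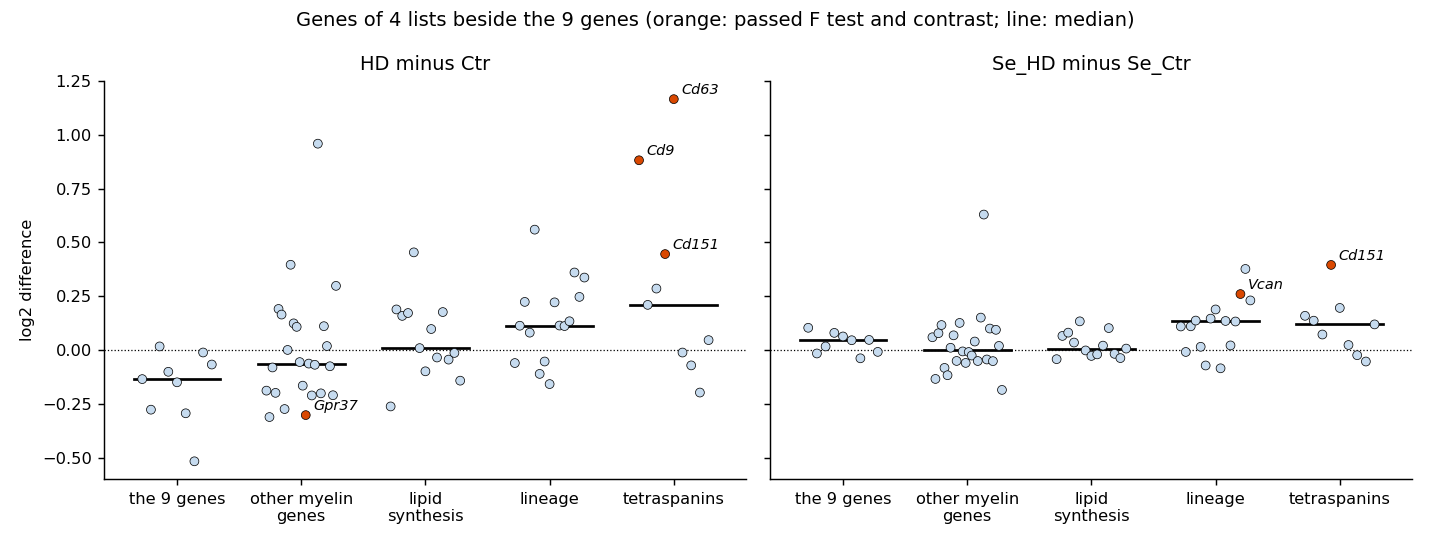
Log2 difference from the control of the same diet (vertical axis) for the 9 genes and the genes of the 4 lists (points) with the median of each list (line), in HD mice at left and Se_HD mice at right. Orange points passed the F test and the contrast. The median of the 9 genes is -0.14 in HD mice (-0.21 to -0.07 when 1 mouse is left out) and 0.05 in Se_HD mice.

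In LD mice 1 of the 61 genes was called, against 0.819% of all genes called higher and 0.639% lower. This was Elovl7, an elongase of long fatty acids, with 173 ± 59.9 (SD, n = 5) normalized counts in Ctr and 263 ± 54.4 (SD, n = 5) in LD mice, a log2 difference of 0.63 (standard error 0.22, limma adjusted p = 0.999). It passed in 10 of the 15 fits that leave out 1 mouse, but not with limma without trend or in the fit of all 30 libraries. In Se_LD mice 2 of 61 rose, Tcf7l2 and Cd151, against 0.879% of all genes called higher and 0.584% lower. Tcf7l2, a transcription factor of differentiating oligodendrocytes that is also strong in thalamic neurons, had 398, 58.5, 185, 558 and 120 normalized counts against 74.5 to 178 in Se_Ctr mice, a log2 difference of 0.98 (standard error 0.42, limma adjusted p = 0.99978). It passed in 7 of 15 such fits, with a log2 difference from 0.60 to 1.41. Cd151 had a log2 difference of 0.26 (standard error 0.11, limma adjusted p = 0.99978) and passed in 10 of 15.

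In Se_HD mice 2 of 61 rose and 0 fell, against 1.28% of all genes called higher and 0.777% lower. Cd151 had 211, 190, 192, 285 and 231 normalized counts in Se_HD and 166, 174, 163, 157 and 173 in Se_Ctr mice, so that all 5 lay above all 5 controls, as did 0.478% of the genes tested. Its log2 difference was 0.40 (standard error 0.11, limma adjusted p = 0.99956), and it passed in all 15 fits that leave out 1 mouse. Vcan, a proteoglycan of the matrix made by oligodendrocyte precursors, had 235 ± 14.5 (SD, n = 5) in Se_Ctr and 282 ± 26.6 (SD, n = 5) in Se_HD mice, a log2 difference of 0.26 (standard error 0.09, limma adjusted p = 0.99956), and passed in 10 of 15. Gfap was also called higher in Se_HD mice, with a log2 difference of 0.51, as 1 of the 8 astrocyte markers. Their median was 0.05, with 6 above 0 and 2 below, and 0 had a limma adjusted p under 0.05. Their summed level was 48346 to 50297 in Se_HD mice, inside the 45326 to 52701 of Se_Ctr mice. In the fit of all 30 libraries by limma these calls of Cd151 and Vcan in Se_HD mice and those of Tcf7l2 and Cd151 in Se_LD mice were lost, and the latter pair was also lost without the trend.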

How the data were processed

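RNA-seq libraries of hippocampus from 30 male mice were analysed, 5 in each of 6 groups taken from the labels. The authors trimmed reads (Trim Galore 0.4.2), aligned them with HISAT2 to NCBIM37, counted them with featureCounts and divided them by one DESeq2 size factor per library; the deposited signal values are these normalized counts. Multiplying back by each library's size factor returned whole reads for 100% of values (tolerance 0.05). The members and lists were chosen with earlier results of these data known. Genes with a summed value of at least 10 in the 15 libraries of a diet were tested on log2(value + 1) with limma 3.58.1 (trend, R 4.3.3), and p-values were adjusted by Benjamini-Hochberg over all of them; fold changes on this scale understate changes of low genes. Comparisons between diets came from one fit of all 30 libraries. Exact permutation tests of 5 against 5 mice (two-sided) cannot give a p below 0.00794. Named genes were the 9 members, up to 5 called genes per list and contrast by lowest p, and the 5 genes of highest Pearson r (of which some are not reported here), except that Opalin, Fa2h, Tspan7, the lineage genes and Gfap were added after their values were seen. Alternatives were count tests on the recovered whole reads (DESeq2 1.42.0, and the quasi-likelihood test of edgeR 4.0.16), pseudocounts of 0.1 and 10, no filter or a mean of at least 10, quantile normalization, limma without trend, the set of library numbers as a covariate, all 30 libraries in one fit, and leaving out each mouse. The scripts were tested on simulated data. Python 3.11.15 with pandas 2.3.3, numpy 2.4.6, scipy 1.17.1 and matplotlib 3.10.9 was used for the rest. The size factors assume that most genes do not differ between groups.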

Additional observations from a re-analysis of the deposited data

Results flagged for a closer look

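In 7 of the 54 sets of 5 mice (9 genes in 6 groups), 1 mouse stood apart from the other 4 by a gap that was a large share of the whole range, above the critical value of 0.71 of Dixon's test. Chance flags about 1 set in 20, or 2.7 of 54 were the sets independent, which the shared variation of the genes does not allow. For Tspan2, the share was 0.940 in Se_Ctr mice, where replicate 4 was highest, and 0.843 in Se_HD mice, where replicate 2 was highest. For Cnp it was 0.725 in Se_HD mice with the same replicate 2 highest, and 0.716 in LD mice with replicate 5 lowest. LD replicate 5 was also lowest for Mag, at 0.725, and LD replicate 2 was highest for Mobp, at 0.722. For Mal it was 0.720 in Ctr mice, where replicate 2 was lowest.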

How the results depend on the processing

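No member was called in either selenium comparison under any of the 10 other settings or the fits that leave out 1 mouse. All 1170 alternative values of the 54 member differences were counted as unchanged. For the LD, HD and between-diet comparisons, this meant a move smaller than the spread between mice. For Se_LD and Se_HD against Se_Ctr mice, it meant only that no call was gained. Leaving out 1 of 5 mice can hardly move a mean by that spread, so for those fits the rule shows little. Some small differences turned sign when 1 mouse was left out: Tspan2 in Se_HD against Se_Ctr mice ranged from -0.09 to 0.16. Differences near 0 also turned sign under the 10 other settings: Mbp (-0.06 to 0.03), Tspan2 (-0.0065 to 0.0031) and Mal (-0.02 to 0.0034) in LD mice, Mag (-0.02 to 0.03) and Cldn11 (-0.02 to 0.0047) in HD mice, and Mog (-0.02 to 0.02) and Ugt8a (-0.01 to 0.04) in Se_HD mice. The number of called genes among the 61 moved more. In LD mice 1 became 0 with limma without trend and 0 in the fit of all 30 libraries, and ranged from 0 to 2 when 1 mouse was left out. In HD mice 4 became 2 without trend and ranged from 2 (without Ctr replicate 3) to 7 (without Ctr replicate 2). In Se_LD mice 2 became 0 without trend and 0 with all 30 libraries, and ranged from 0 to 5 (without Se_LD replicate 5). In Se_HD mice 2 became 0 with all 30 libraries and ranged from 1 to 3. The cause was not tested. Leaving out mice in the comparisons between diets was chosen after seeing the data; the difference between the diets ranged from 0.20 to 0.46 for Tspan2 and from 0.35 to 0.62 for Mal. When the 5 sets of neighbouring library numbers entered the fit as a block, the counts of called genes were 1, 4, 2 and 2 in LD, HD, Se_LD and Se_HD mice, as without it (though the HD call of Cd151 was lost), and 0 members were called; what these sets share is not given in the sources used here. With 5 mice a group, differences inside the printed intervals could not be resolved.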
